A study of Saccharomyces cerevisiae with 4 samples.

Results

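Of the 77 small nucleolar RNAs (snoRNAs) listed in the deposited tables, 6 are box H/ACA snoRNAs that guide pseudouridines of 18S rRNA and none of 25S rRNA. They are SNR31, SNR35, SNR36, SNR83, SNR85 and SNR161, with the RNAs written snR31, snR35 and so on. They were chosen by their known targets and not by their values, although earlier results of these data were known. All 6 were listed in both snoRNA tables, which held 76 snoRNAs for Dbp7-HTP and 77 for the wild type. The cells were Saccharomyces cerevisiae BY4741, either expressing the RNA helicase Dbp7 with a C-terminal His-Tev-ProtA tag from its own genomic locus (Dbp7-HTP) or carrying no tag (WT), and both strains were given 4-thiouracil and cross-linked in vivo at 365 nm. RNA bound to the tagged protein was purified under denaturing conditions, trimmed and sequenced, and reads with a T-to-C change were kept, which is the trace that a cross-linked 4-thiouridine leaves. The untagged cells give the background of the purification. Each strain had 2 libraries with coverage of the 35S pre-rRNA, but snoRNA tables were analysed for the second library of each strain only, so that snoRNA ratios have 1 library per strain, no replicate check and no p-value.

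A box H/ACA snoRNA folds into hairpins, each with an internal loop whose strands pair with rRNA on both sides of a uridine. The proteins of the particle, with the pseudouridine synthase Cbf5 among them, then convert that uridine to pseudouridine. Box C/D snoRNAs, the other large family, guide methylation of the ribose instead. 18S rRNA is the RNA of the small (40S) ribosomal subunit, whereas Dbp7 is implicated in assembly of the large (60S) subunit, so the guides of 18S alone are a small-subunit counterpart to the many guides of 25S rRNA.

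The 6 guides are known to direct 8 uridines of 18S. snR31 directs U999, snR36 directs U1187, snR85 directs U1181, snR83 directs U1290 and U1415, and snR161 directs U632 and U766. snR35 directs U1191, which lies near the ribosomal P site and is modified further after the guide has acted, by the methyltransferase Emg1 and the aminocarboxypropyl transferase Tsr3. Positions are counted from the first nucleotide of 18S, and all 8 were U in the deposited sequence. The target stretches are shown because the coverage results below refer to them, with 15 nt on each side and the target uridine in capitals. In the last of them the targets of 3 guides lie within 11 nt, with U1181 6 nt before U1187 and U1187 4 nt before U1191.
snR31 target, 18S positions 984 to 1014: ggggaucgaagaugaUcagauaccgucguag
snR83 target, 18S positions 1275 to 1305: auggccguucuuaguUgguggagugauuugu
snR83 target, 18S positions 1400 to 1430: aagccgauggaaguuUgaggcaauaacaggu
snR161 target, 18S positions 617 to 647: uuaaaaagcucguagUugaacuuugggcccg
snR161 target, 18S positions 751 to 781: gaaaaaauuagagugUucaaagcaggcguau
snR85, snR36 and snR35 targets, 18S positions 1166 to 1206: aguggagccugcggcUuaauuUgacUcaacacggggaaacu

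The Dbp7-HTP library had 730583 mapped reads and the WT library 467529, so that 1 read was worth 1.37 reads per 1000000 mapped reads (RPM) with Dbp7-HTP and 2.14 RPM in WT. Ribosomal RNA took 700544 RPM with Dbp7-HTP and 326221 RPM in WT, which leaves less of the total for all other RNAs with Dbp7-HTP. RPM is a count of cross-linked reads, in which the amount of a snoRNA and how often it was cross-linked cannot be told apart. In the reference annotation, no other gene overlaps any of the 6 genes. The nearest genes on the 2 sides are CAF20 and SNR5 for SNR31, ODC2 and DSC3 for SNR35, SER1 and GSP2 for SNR36, MIN3 and SSO2 for SNR83, NUP188 and CAC2 for SNR85, and PDX3 and TLC1 for SNR161.

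The 18S guides had few reads in both libraries, from 2 to 36 for a member. 4 of the 5 members with at least 10 reads had a ratio above 1 and snR35 had a ratio below 1, and in RPM only the interval of snR31 lay apart from 1. Added together, the 6 members had 132 reads (180.7 RPM) with Dbp7-HTP and 70 reads (149.7 RPM) in WT. Their summed RPM ratio, Dbp7-HTP over WT, was 1.21, with a 95% exact interval of 0.896 to 1.64 that includes 1. That call depends on the scaling, since the interval lay above 1 per read outside rRNA (2.72, 2.02 to 3.68), per listed snoRNA read without snR190 (1.78, 1.32 to 2.41) and relative to the median of all snoRNAs (1.65, 1.23 to 2.24), but included 1 per listed snoRNA read (0.928, 0.690 to 1.26). It also rests on snR35, without which the summed ratio in RPM was 1.59 (1.11 to 2.30). Scaling the libraries another way multiplies every ratio alike, by 2.25 per read outside rRNA, which put snR35 above 1 (1.27), by 0.769 per listed snoRNA read, which put snR83 below 1 (0.909), and by 1.48 per listed snoRNA read without snR190. All intervals cover counting error only and treat each read as independent. Amplified reads are not independent molecules, so the intervals can be too narrow.

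SNR31 had 42 RPM (31 reads) with Dbp7-HTP and 19 RPM (9 reads) in WT. Its ratio of 2.204 (95% exact interval 1.02 to 5.26) was the highest of the 6 and ranked 9 among the 75 snoRNAs with at least 10 reads in both libraries together. SNR31 was the single member whose ratio passed 2-fold, which 12% of the 75 snoRNAs did, and the single member whose interval lay above 1, which held for 14.7% of them. The paper lists snoRNAs enriched more than 2-fold between the same 2 libraries, and snR31 is not among those it names. With the reads of the 2 libraries scaled to all listed snoRNAs, no member passed 2-fold, and the interval of SNR31 included 1 (1.70, 0.788 to 4.05). It also included 1 by an unlabelled last column of the table (1.99, 0.913 to 4.80). Per read outside rRNA the interval of SNR31 lay above 1 (4.96, 2.30 to 11.8). The same held per listed snoRNA read without snR190 (3.25, 1.51 to 7.76) and relative to the median of all snoRNAs (3.02, 1.40 to 7.21). These scalings raise the ratios of all 75 snoRNAs alike, and the share of them with an interval above 1 was counted in RPM only.

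SNR36 had 49 RPM (36 reads) with Dbp7-HTP and 27 RPM (13 reads) in WT, a ratio of 1.77 (0.918 to 3.64). SNR85 had 20 RPM (15 reads) with Dbp7-HTP and 14 RPM (7 reads) in WT, a ratio of 1.37 (0.526 to 3.98). SNR83, which serves a pair of 18S uridines, had 32 RPM (24 reads) with Dbp7-HTP and 27 RPM (13 reads) in WT, a ratio of 1.18 (0.578 to 2.53). In RPM the intervals of all 3 included 1. Per read outside rRNA all 3 lay above 1, at 3.99 (2.07 to 8.19) for SNR36, 3.09 (1.18 to 8.95) for SNR85 and 2.66 (1.30 to 5.68) for SNR83. That scaling multiplies the ratio of every listed snoRNA by 2.25, so the shift is not particular to these guides. The share of all 75 snoRNAs whose interval then lay above 1 was not counted. SNR36 also lay above 1 per listed snoRNA read without snR190 (2.61, 1.35 to 5.37) and relative to the median of all snoRNAs (2.43, 1.26 to 4.99). Their ranks among the 75 snoRNAs were 11, 18 and 25, in the order given.

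SNR35, the guide of the hypermodified U1191, was the one member of the 5 with more RPM in WT, although not when scaled to reads outside rRNA. It had 31 RPM (23 reads) with Dbp7-HTP and 55 RPM (26 reads) in WT. The ratio was 0.566 (0.309 to 1.03), rank 48 of 75, and its interval just included 1, but lay below 1 per listed snoRNA read (0.435, 0.237 to 0.794). SNR161 had 4 RPM in each library, from 3 reads with Dbp7-HTP and 2 reads in WT. Its ratio of 0.960 had an interval from 0.110 to 11.5, so that a change in either direction was not detectable at this depth, and it was left out of medians and of counts past a fold.

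**Figure D1:**
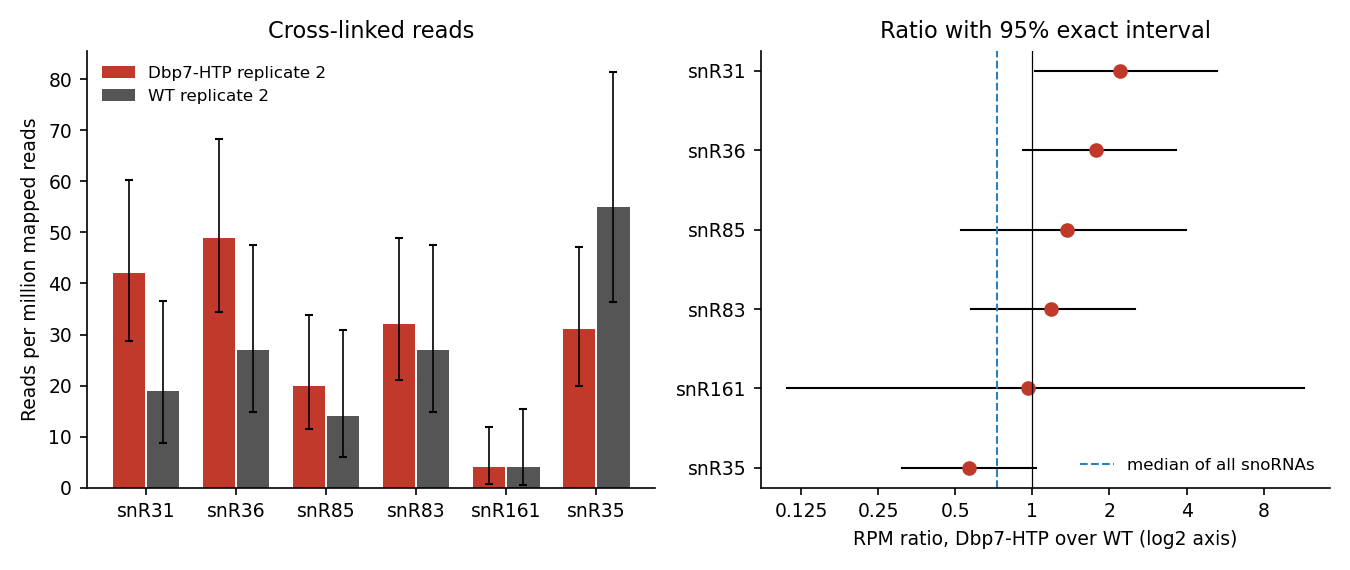
Left, RPM of the 6 guides in Dbp7-HTP replicate 2 (red) and WT replicate 2 (grey), with 95% exact Poisson intervals. Right, the RPM ratio, Dbp7-HTP over WT, on a log2 axis with its 95% exact interval, with the median of all snoRNAs (0.73) as a dashed line. snR31 lies highest at 2.204 and snR35 lowest at 0.566, and on the RPM scale only the interval of snR31 lies apart from 1.

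The RPM intervals show how little depth stands behind each bar. They ran from 28.8 to 60.2 RPM with Dbp7-HTP and from 8.80 to 36.5 RPM in WT for snR31. For snR35 they ran from 19.96 to 47.2 RPM with Dbp7-HTP and from 36.3 to 81.5 RPM in WT. The intervals of the libraries overlapped for both guides, and for the other 4.

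The members also divided their reads differently in the libraries. snR35 held 17.4% of the members' reads with Dbp7-HTP (95% Wilson interval 11.9 to 24.8) and 37.1% in WT (26.8 to 48.9). snR31 held 23.5% with Dbp7-HTP (17.1 to 31.4) and 12.9% in WT (6.91 to 22.7). snR36 held 27.3% with Dbp7-HTP (20.4 to 35.4) and 18.6% in WT (11.2 to 29.2). In words, snR35 was the most read of the 6 in WT and snR36 the most read with Dbp7-HTP, a comparison of reads that takes no account of the lengths of the RNAs. The intervals of the shares overlapped between the libraries for all 5 members other than snR35.

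These shares are free of the scaling, and so are the ratios between members. Among the 15 pairs of members, the interval excluded equal change for 2, snR31 over snR35 at 3.89 (1.41 to 11.2) and snR36 over snR35 at 3.13 (1.24 to 8.01). After adjustment of the intervals for the 15 pairs, none excluded it, with bounds of 0.923 to 18.9 for snR31 over snR35 and 0.833 to 12.6 for snR36 over snR35.

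Against all snoRNAs, the 18S H/ACA guides sat above the middle. Their median ratio was 1.37 over the 5 with at least 10 reads, and the median of all 75 snoRNAs was 0.730. A ratio above 1 was found for 4 of the 5, against 40% of the 75. No member lay below 0.5, where 36% of the 75 lay. Of all snoRNA reads listed, 1.51% belonged to the 6 guides with Dbp7-HTP (1.28 to 1.79, 132 of 8725 reads) and 1.63% in WT (1.29 to 2.05, 70 of 4295 reads). Without snR190, the box C/D snoRNA with 4425 reads in the Dbp7-HTP library and 236 in the WT library, the shares were 3.07% with Dbp7-HTP (2.59 to 3.63) and 1.72% in WT (1.37 to 2.17). Within the H/ACA family the members held 8.70% of listed reads with Dbp7-HTP (7.38 to 10.2) and 9.26% in WT (7.39 to 11.5), and these intervals overlapped.

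The H/ACA snoRNAs that guide both 18S and 25S are the nearest relatives of the members. Summed over these 4, the ratio was 2.51 (1.59 to 4.10), from 94 reads in the Dbp7-HTP library and 24 in the WT library. The summed ratio of the 18S-only guides was 0.481 times theirs (0.270 to 0.843), an interval that excludes 1. That difference rested on SNR49, which had 84 RPM (62 reads) with Dbp7-HTP and 19 RPM (9 reads) in WT, a ratio of 4.41 (2.18 to 10.1), and without SNR49 it was 0.884 (0.415 to 1.82). Of the other 3, SNR44 had 19 RPM with Dbp7-HTP and 8 RPM in WT (2.24, 0.703 to 9.34), SNR80 had 10 RPM with Dbp7-HTP and 4 RPM in WT (2.56, 0.511 to 24.7), and SNR189 had 13 RPM with Dbp7-HTP and 19 RPM in WT (0.711, 0.260 to 1.98).

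The 18 H/ACA guides of 25S alone had a summed ratio of 1.41 (1.27 to 1.57) and a median of 1.24, with 12 above 1 and 6 below. Single ratios of these 25S guides ran from 0.384 to 3.89, with 3 above 2-fold and 2 below 0.5. The 18S-only guides stood at 0.858 times the summed ratio of the 25S guides (0.625 to 1.19). A difference in summed ratio between guides of the small and of the large subunit alone was thus not detectable within the H/ACA family. This compares the lists as a whole and not single guides.

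The contrast with box C/D guides of 18S alone was larger. Of these 12, the 11 with at least 10 reads had a median ratio of 0.311 and a range of 0.142 to 0.989, and 9 of them lay below 0.5. Their summed ratio was 0.336 (0.301 to 0.374), from 516 reads with Dbp7-HTP and 983 in WT. The summed ratio of the H/ACA 18S guides was 3.59 times this (2.61 to 4.97), and 4.31 times (3.08 to 6.05) without SNR128, the U14 snoRNA, which also acts in pre-rRNA cleavage. Scaling the libraries another way leaves this comparison as it is, since it changes the ratios of both families alike. The contrast was not particular to the 18S-only H/ACA guides. The H/ACA guides of both rRNAs (summed ratio 2.51) and of 25S alone (1.41) also lay above these box C/D guides.

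**Figure D2:**
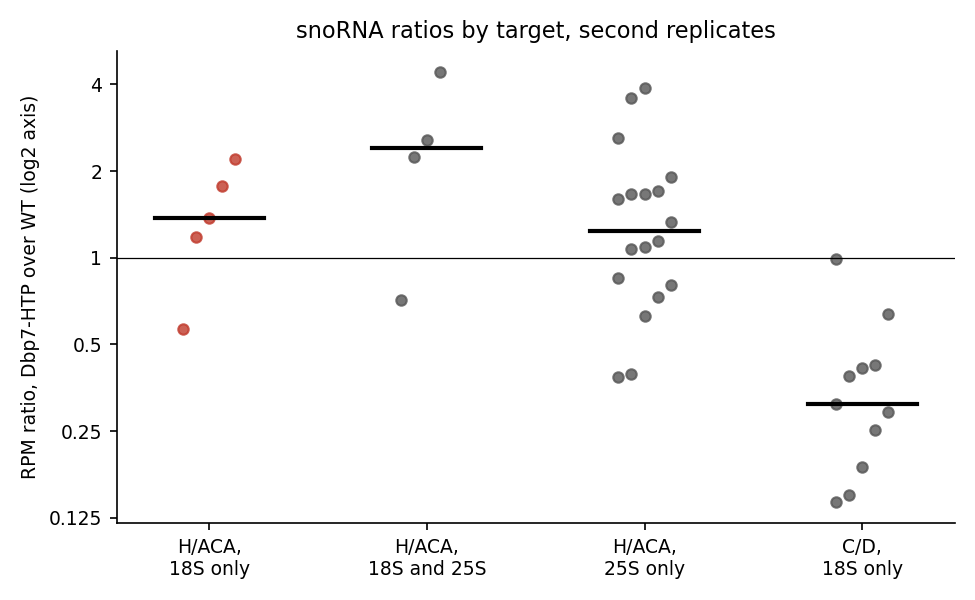
RPM ratio, Dbp7-HTP over WT, on a log2 axis for each snoRNA with at least 10 reads, grouped by family and target, with the median as a bar. The 5 H/ACA guides of 18S only (red) have a median of 1.37, and the box C/D guides of 18S only have a median of 0.311.

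Outside these lists, the snoRNAs whose ratios lay nearest to the members' summed ratio of 1.21 were SNR69, a box C/D guide, and SNR17A, 1 of the genes of the U3 snoRNA that acts in 18S processing. SNR69 had 46 Dbp7-HTP reads and 24 WT reads, which gave 1.23 (0.733 to 2.10). SNR17A had 180 Dbp7-HTP reads and 91 WT reads, which gave 1.27 (0.978 to 1.65).

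The target sites were examined in all 4 libraries. Dbp7-HTP replicates 1 and 2 had a mean 18S coverage of 415 and 259.8 reads per nucleotide, and WT replicates 1 and 2 had 135 and 430.2. Of all 35S coverage, 18S held 7.69% and 8.24% in the Dbp7-HTP libraries, against 31.2% and 41.5% in the WT libraries, so each site was set against the mean 18S coverage of its own library. With 2 libraries against 2, an exact two-sided permutation test cannot go below p = 0.333. The libraries of a strain came from independent cross-linking experiments.

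Across the 8 target uridines the median log2 ratio of relative coverage, Dbp7-HTP over WT, was -0.23, with a range of -0.87 to 1.03. The median over all 510 uridines of 18S was 0.01. Both Dbp7-HTP libraries lay above both WT libraries at 1 target, against 24.9% of all 18S uridines, and below them at 2 targets, against 23.9% of all. At the other 5 targets the strains overlapped, and the targets did not stand out from 18S uridines at large by these counts.

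At U999, the target of snR31, relative coverage was 0.465 and 0.6004 in the Dbp7-HTP libraries, against 1.35 and 0.693 in the WT libraries. The Dbp7-HTP libraries were both lower, with a log2 ratio of -0.87 (SD 0.26 with Dbp7-HTP and 0.68 in WT, n = 2 each, exact permutation p = 0.333). The size of that gap came mainly from WT replicate 1, without which it was -0.39. Among all 18S uridines, 13.5% had a lower log2 ratio.

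At U632, a target of snR161, relative coverage was 0.467 and 0.350 in the Dbp7-HTP libraries, against 0.754 and 0.674 in the WT libraries. The log2 ratio was -0.82 (SD 0.29 with Dbp7-HTP and 0.11 in WT, n = 2 each, exact permutation p = 0.333). At U766, the other target of snR161, relative coverage was 0.804 and 0.993 in the Dbp7-HTP libraries, against 0.968 and 0.537 in the WT libraries. Here the strains overlapped, and the log2 ratio was 0.31, but -1.03 when coverage was scaled to all reads. That scaling, for which the read totals of the first replicates were estimated, shifts every site alike and moved the median of all 18S uridines to -1.33.

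At U1415, a target of snR83, relative coverage was 1.30 and 1.01 in the Dbp7-HTP libraries, against 0.599 and 0.528 in the WT libraries. This was the single target higher in both Dbp7-HTP libraries, with a log2 ratio of 1.03 (SD 0.26 with Dbp7-HTP and 0.13 in WT, n = 2 each, exact permutation p = 0.333), above 97.5% of 18S uridines, but its direction turned when coverage was scaled to all reads (-0.31) or to the 35S pre-rRNA (-1.15). In RPM, U1415 had 446 and 357 in the Dbp7-HTP libraries, against 503 and 483 in the WT libraries, and 85.7% of 18S uridines likewise had both Dbp7-HTP libraries below both WT libraries. These RPM values use estimated read totals for the first replicate of each strain. At U1290, the other target of snR83, relative coverage was 0.929 and 0.735 in the Dbp7-HTP libraries, against 1.27 and 0.767 in the WT libraries, and the strains overlapped (log2 ratio -0.26).

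**Figure D3:**
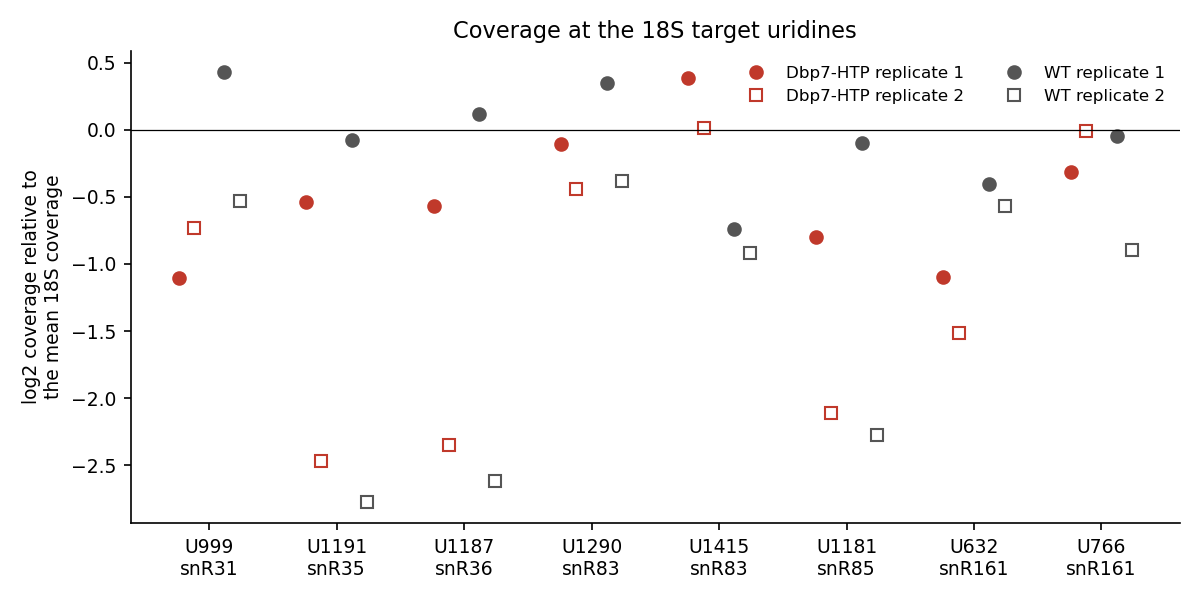
Coverage at each of the 8 target uridines relative to the mean 18S coverage of the same library, for Dbp7-HTP (red) and WT (grey), with replicate 1 as filled circles and replicate 2 as open squares. U1415 is higher in both Dbp7-HTP libraries on this scale, with the opposite direction when scaled to all reads, and at U1181, U1187 and U1191 the second replicates of both strains lie far below the first.

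The targets of snR85, snR36 and snR35 share their reads, since they lie within 11 nt, and are not independent of each other. At U1191 relative coverage was 0.689 and 0.181 in the Dbp7-HTP libraries, against 0.946 and 0.146 in the WT libraries. At U1187 it was 0.674 and 0.196 in the Dbp7-HTP libraries, against 1.09 and 0.163 in the WT libraries. At U1181 it was 0.575 and 0.231 in the Dbp7-HTP libraries, against 0.931 and 0.207 in the WT libraries. The libraries fell apart by replicate number and not by strain, with the second library of each strain several times lower than the first. The log2 ratios were -0.08, -0.21 and -0.27 in the order given, and each changed sign when either Dbp7-HTP replicate 2 or WT replicate 1 was left out.

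Over the whole 11 nt, mean coverage was 268 and 53.4 reads in the Dbp7-HTP libraries and 145 and 73.2 reads in the WT libraries. Relative to 18S this was 0.646 and 0.205 in the Dbp7-HTP libraries, against 1.07 and 0.170 in the WT libraries. Over this stretch the second libraries of the strains lay closer to each other than either did to the first library of its strain, and the part of preparation or sequencing in this was not tested.

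Just 3′ of this stretch, coverage stepped up in all 4 libraries at the same nucleotide, 5 nt after U1191. Coverage before and after the step was 324 and 560 reads in Dbp7-HTP replicate 1, and 66 and 134 reads in Dbp7-HTP replicate 2. It was 146 and 240 reads in WT replicate 1, and 79 and 136 reads in WT replicate 2. With 1 read added to each coverage, the step was 1.73-fold and 2.01-fold in the Dbp7-HTP libraries, against 1.64-fold and 1.71-fold in the WT libraries. Of the 1799 steps between neighbouring nucleotides of 18S, 10 and 5 were larger upward steps in the Dbp7-HTP libraries, against 13 and 6 in the WT libraries. The step was looked for after the coverage had been seen, within 15 nt of U1191, and it stood in tagged and untagged cells alike.

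**Figure D4:**
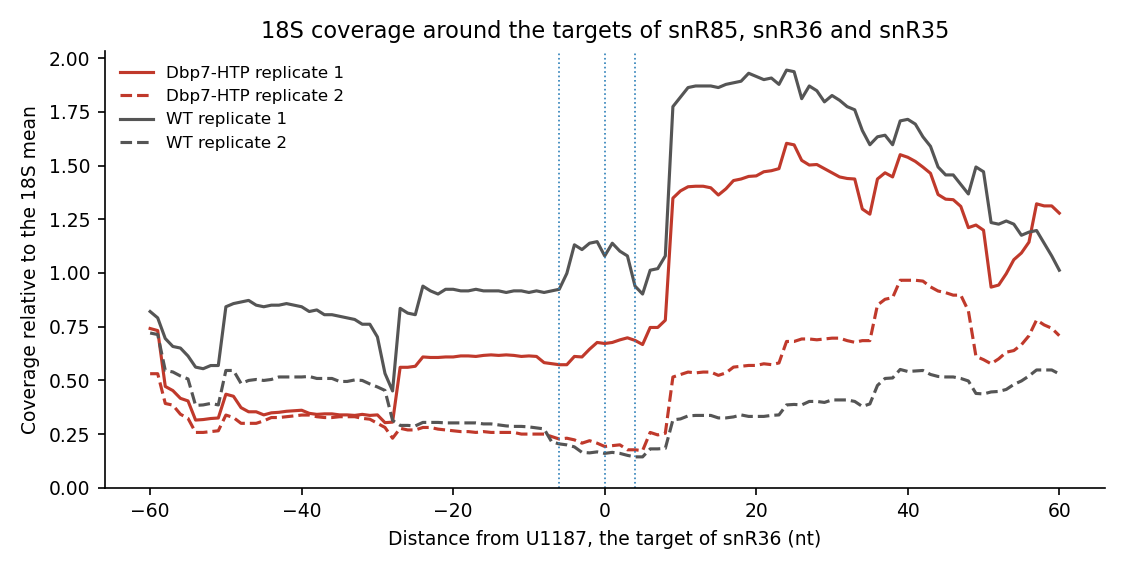
Coverage relative to the 18S mean against distance from U1187 in nt, for Dbp7-HTP (red) and WT (grey), with replicate 1 as solid and replicate 2 as dashed lines and U1181, U1187 and U1191 as dotted lines. Relative coverage over the targets is 0.646 and 0.205 in the Dbp7-HTP libraries, against 1.07 and 0.170 in the WT libraries, and all 4 lines step up at the same nucleotide.

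Substitutions at the uridine, as a share of the reads that cover it, give a view of the sites that needs no scaling. This measure was added after the coverage had been seen. Since only reads with a T-to-C change were kept, a share says where in the kept reads the change lies, not how often RNA was cross-linked. Over the 480 uridines of 18S with at least 20 reads in every library, the median share was 5.47% and 5.75% in the Dbp7-HTP libraries and 7.45% and 6.06% in the WT libraries.

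U999, the target of snR31, had the highest shares of the 8 targets in each library but WT replicate 2. The substitution share was 41.7% (34.9 to 48.7, 80 of 192 reads) and 38.1% (30.8 to 45.9, 59 of 155 reads) in the Dbp7-HTP libraries, against 22.7% (17.2 to 29.3, 41 of 181 reads) and 7.41% (4.94 to 10.96, 22 of 297 reads) in the WT libraries. The Dbp7-HTP libraries averaged 39.9% ± 2.55 and the WT libraries 15.03% ± 10.8 (SD, n = 2 each), a difference of 24.8 percentage points (exact permutation p = 0.333). Both Dbp7-HTP libraries were above both WT libraries, and 11 of the 480 uridines had a larger gap in percentage points. The share at U999 exceeded that of 95% and 93.5% of the 480 uridines in the Dbp7-HTP libraries. It already exceeded that of 87.9% of them in WT replicate 1, and of 57.7% in WT replicate 2. The WT libraries differed widely from each other at this uridine.

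Both Dbp7-HTP libraries had higher shares than both WT libraries at 2 of the 8 targets, against 19% of the 480 uridines, and lower shares at 4, against 33.5%. The other higher target was U1191, where the share was 15.4% and 10.9% in the Dbp7-HTP libraries and 7.87% and 8.06% in the WT libraries, but the second Dbp7-HTP value rested on 5 of 46 reads. The lower targets were U1290, U1415, U632 and U766. U1415 had shares of 2.96% and 3.83% in the Dbp7-HTP libraries, against 10% and 8.85% in the WT libraries. The targets of snR161 had few substitutions in every library, with 0.518% and 1.11% at U632 and 0.901% and 0.389% at U766 in the Dbp7-HTP libraries, against 2.97% and 1.73% at U632 and 3.85% and 1.74% at U766 in the WT libraries.

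**Figure D5:**
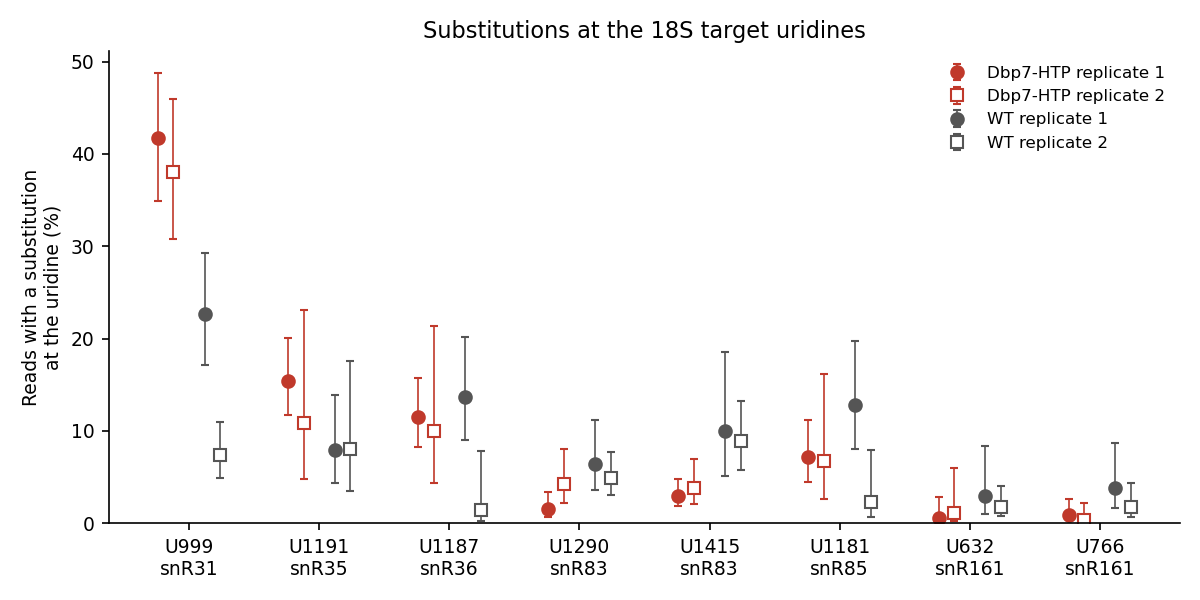
Share of covering reads with a substitution at each target uridine (%), with 95% Wilson intervals, for Dbp7-HTP (red) and WT (grey), with replicate 1 as filled circles and replicate 2 as open squares. At U999 the Dbp7-HTP libraries lie at 41.7% and 38.1%, above the WT libraries at 22.7% and 7.41%.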

How the data were processed

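Libraries were grouped by the sample labels into Dbp7-HTP and WT, 2 each. The growth description in the labels names other tagged proteins, and the label of the tagged protein, Dbp7, was followed. The authors used Bowtie 2 (2.2.4) for mapping and pyCRAC for counting, and retained reads in which a T-to-C change was present; the annotation release is not given in the sources used here. The deposited 35S profiles of each library hold a coverage signal and a substitution count per nucleotide, both without normalization. The deposited snoRNA and RNA class values are scores, reads per 1000000 mapped reads that the authors cut down to whole numbers. With the totals stated in the deposited snR190 files, 153 of 153 snoRNA values (100%) were the whole part of a whole number of reads, and these reads gave exact (Clopper-Pearson) ratio intervals at 95%. An unlabelled last column was used only as an alternative chosen after seeing the data. Totals of the first replicates (1214217 reads with Dbp7-HTP, 159127 in WT) were estimated from coverage per rRNA read. Coverage at a site plus 1 read was divided by the mean over the 1800 nt of 18S and compared as log2. The ratio intervals, the recovery of reads from RPM and the log2 change in coverage were tested on simulated data. The permutation test and the other intervals were not. The simulated counts held no amplified duplicates. The software was Python 3.11.15, numpy 2.4.6, scipy 1.17.1 and matplotlib 3.10.9.

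The members and lists were chosen with earlier results of these data known. Target uridines came from general knowledge of yeast rRNA modification. The text names the 6 members, the 4 H/ACA guides of both rRNAs, and the 2 other snoRNAs nearest to the members' summed ratio; SNR128 and snR10 are named beside values without them, and snR190 for its reads. Alternatives were other scalings, folds and windows, substitutions in place of coverage, each library left out and a replicate block.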

Additional observations from a re-analysis of the deposited data

How the results depend on the processing

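The snoRNA ratios depend on the scaling, which multiplies every ratio by 1 factor. The members' summed ratio was 2.72 (2.02 to 3.68) per read outside rRNA, 1.78 (1.32 to 2.41) per listed snoRNA read without snR190, and 1.65 (1.23 to 2.24) relative to the median of all snoRNAs, and their median ratio was 3.09 per read outside rRNA. Members above 2-fold numbered 4 per read outside rRNA, 0 per listed snoRNA read, 3 per listed snoRNA read without snR190, 2 relative to the median, 0 by the unlabelled last column (an alternative chosen after seeing the data, where snR31 had 1.99) and 2 at a fold of 1.5. Members below the lower fold numbered 1 per listed snoRNA read and 1 at a fold of 0.67, against 0 at 0.5. Another scaling moves all 75 snoRNAs alike, so these counts alone say nothing particular about the members. The share of all 75 was counted in RPM only, at 12% above 2 and 36% below 0.5. snR35 changed side of 1 per read outside rRNA (1.27). Without SNR10, the members' summed ratio over that of the 25S guides was 0.919 (0.667 to 1.28). The median target site log2 ratio was -2.41 relative to the 35S coverage (all 18S uridines -2.16) and -1.58 in RPM (all 18S uridines -1.33), and it ran from -1.12 (without WT replicate 2) to 0.78 (without WT replicate 1), with -0.81 without Dbp7-HTP replicate 1 and 0.27 without Dbp7-HTP replicate 2. With substitutions in place of coverage, the log2 ratio was 0.72 at U999, 0.57 at U1191, 0.68 at U1187, -0.45 at U1415 and -1.40 at U766, each opposite in sign to coverage. U1415 and U766 were also opposite relative to the 35S coverage (-1.15 and -1.87) and in RPM (-0.31 and -1.03). Leaving out 1 library gave -1.42 to 1.27 at U1191, -1.58 to 1.16 at U1187, -0.62 to 0.11 at U1290, -1.35 to 0.82 at U1181 and -0.12 to 0.73 at U766, while U999, U1415 and U632 kept their direction. The cause of these changes was not tested. The labels number the libraries 1 and 2 without saying what a number shares. With the replicate block the median site log2 ratio is -0.23 by construction, since each number holds 1 library of each strain, so the block says nothing about stability, and same-numbered deviations over 18S uridines correlated at 0.256. No paired analysis was possible for the snoRNA ratios because each strain had 1 snoRNA table. Depth limits snR161 most, with 3 reads with Dbp7-HTP and 2 in WT.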
